A study of Mus musculus with 16 samples.

Results

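Olfactory receptor peaks are the H3K9me3 peaks of the mouse small intestinal crypt that were annotated with an olfactory receptor gene, that is, a gene whose symbol is Olfr followed by a number. There were 2665 such peaks of 212313 in all, at 835 receptor symbols on 18 chromosomes, and they covered 5.1 Mb. The annotation placed 1242 of them over the receptor gene, 699 upstream of it and 724 downstream, up to 5 kb away. To these were added 709 of 47065 broader H3K9me2 regions whose listed genes included an Olfr gene.

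Both marks were measured by ChIP-seq in whole crypt isolates of C57BL/6 mice, with 3 wild type libraries (WT) and 3 libraries of mice with a Vil-Cre mediated KO of Smarcad1 (KO) per mark. For each genotype and mark 1 input library, chromatin that saw no antibody, was sequenced as well. Vil-Cre acts in the intestinal epithelium and removes the floxed part of Smarcad1, which codes for a chromatin remodeler of the SWI/SNF-like family; other cells in a whole crypt suspension keep the gene. No peak of either mark was annotated with Smarcad1, so these files hold no check of the deletion. The study calls its libraries biological replicates, but the labels do not tie them to separate mice, so the p-values measure the spread between these libraries. A lower value can come from fewer marked cells or from less of the mark per cell, and these cannot be told apart in bulk chromatin.

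Olfactory receptors are G protein-coupled receptors that bind odorants in the nose, where each sensory neuron expresses one allele of one receptor gene. The genes form the largest gene family of the mouse and lie in arrays on many chromosomes, the class I receptors in a single array on chromosome 7 and the class II receptors in the others. In olfactory neurons the silent receptor genes are packed into heterochromatin that carries H3K9me3, whereas most other tissues neither need nor express them. H3K9me3 is written by enzymes such as Setdb1 and Suv39h1 and is also the usual mark of silenced retrotransposons, many copies of which lie between receptor genes.

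In the crypts, few H3K9me3 peaks at olfactory receptor genes passed the test for a difference between KO and WT. Of the 2665 Olfr peaks, 29 (1.09%) were lower and 4 (0.15%) were higher in KO, against 2.46% and 0.252% of all peaks. With DESeq2 the counts were 12 and 0, and without any 1 library 17 to 24 and 0 to 3. Of the lower peaks 22 lay in clusters that held few Olfr peaks, mainly on chromosomes 7, 8, 11 and 14, and the arrays with the most peaks, on chromosomes 2, 9 and 19, held 1. The falls of the 29 peaks ran between 0.35 and 1.34 on the log2 scale. Of the 29 lower peaks, 12 held stretches of the same interspersed sequences, which are shown next because lower peaks elsewhere in the genome held them too.

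Among the 29 lower Olfr peaks, 85 different 14-base words occurred in at least 4 of these peaks and in at most 2 of the other Olfr peaks. These words fell mostly into 2 groups, 64 words spread over 8 lower peaks and 17 words spread over 5. The first group is shown around one shared word, read from the RefSeq GRCm38 genome with 60 bases on either side of the word. Capitals mark the 19-base run that is identical in all copies, and a further copy, in the lower Olfr943 peak, is not printed. With 1 library left out in turn, the peaks at Olfr1338 and Olfr212 passed the threshold in 5 of 6 cases and those at Olfr506 and Olfr943 in 2, and the latter pair did not pass with DESeq2.
Olfr1338 (chr4:118744184-118744317, minus strand): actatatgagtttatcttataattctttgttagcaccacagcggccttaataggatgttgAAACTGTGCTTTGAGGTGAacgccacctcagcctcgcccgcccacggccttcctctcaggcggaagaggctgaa
Olfr212 (chr6:116505254-116505387, plus strand): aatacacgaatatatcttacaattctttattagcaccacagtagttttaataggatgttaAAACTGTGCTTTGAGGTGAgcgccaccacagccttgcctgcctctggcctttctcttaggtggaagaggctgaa
Olfr506 (chr7:108603776-108603909, plus strand): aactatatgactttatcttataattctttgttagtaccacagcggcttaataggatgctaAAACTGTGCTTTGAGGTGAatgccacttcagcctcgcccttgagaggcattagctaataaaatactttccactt

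The second group is shown in the same way, and capitals mark the 14-base run that its 5 copies share. Olfr372 and Olfr373 are neighbouring genes on chromosome 8, and the other copies lay on chromosomes 7, 11 and 14. With 1 library left out in turn, the peaks at Olfr372, Olfr373 and Olfr501-ps1 passed the threshold in 1 of 6 cases and those at Olfr332 and Olfr721-ps1 in 5, and none of the 5 passed with DESeq2.
Olfr372 (chr8:72054146-72054279, plus strand): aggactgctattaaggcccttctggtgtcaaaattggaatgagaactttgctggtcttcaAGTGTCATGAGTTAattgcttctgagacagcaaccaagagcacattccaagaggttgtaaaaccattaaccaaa
Olfr373 (chr8:72096218-72096351, plus strand): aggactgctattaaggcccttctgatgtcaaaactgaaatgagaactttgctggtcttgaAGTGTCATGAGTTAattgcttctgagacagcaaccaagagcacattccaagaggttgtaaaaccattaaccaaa
Olfr332 (chr11:58496856-58496989, plus strand): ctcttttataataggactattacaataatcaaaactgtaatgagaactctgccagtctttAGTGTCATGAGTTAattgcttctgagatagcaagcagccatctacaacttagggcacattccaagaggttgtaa
Olfr721-ps1 (chr14:14415107-14415240, plus strand): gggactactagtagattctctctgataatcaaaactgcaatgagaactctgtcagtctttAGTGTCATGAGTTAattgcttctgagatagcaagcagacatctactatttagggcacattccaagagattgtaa
Olfr501-ps1 (chr7:108510637-108510770, minus strand): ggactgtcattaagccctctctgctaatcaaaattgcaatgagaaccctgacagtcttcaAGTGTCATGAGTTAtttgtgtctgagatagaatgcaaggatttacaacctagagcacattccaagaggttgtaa

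The Olfr peak of smallest p among those higher in KO lay downstream of Olfr1231 in the large array on chromosome 2. The 300 bases at its centre are shown with the bases that RefSeq masks as repeats in capitals, 256 of the 300.
Olfr1231 (chr2:89310751-89311050, plus strand): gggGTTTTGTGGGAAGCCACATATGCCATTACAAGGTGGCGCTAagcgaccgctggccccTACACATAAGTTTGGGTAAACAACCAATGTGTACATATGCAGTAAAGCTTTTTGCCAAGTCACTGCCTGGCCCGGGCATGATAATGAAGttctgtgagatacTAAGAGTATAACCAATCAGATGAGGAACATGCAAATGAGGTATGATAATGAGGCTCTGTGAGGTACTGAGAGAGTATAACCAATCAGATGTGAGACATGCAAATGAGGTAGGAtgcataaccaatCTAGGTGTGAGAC

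The words were picked on the Olfr peaks after the calls were known, so the count of Olfr peaks that hold them is only a description: 20 Olfr peaks held at least 5 of the words and 12 of these were lower. Peaks outside Olfr genes had no part in picking them. Of 209648 peaks outside Olfr genes, 485 held at least 5 of the words. In KO 154 of these 485 peaks (31.8%) were lower and 0 were higher, with a median change that fell by 0.23 on the log2 scale, whereas 2.48% of all peaks outside Olfr genes were lower. Peaks with the words were wide, with a median of 4650 bp against 1350 bp, and wide peaks hold more reads. Among peaks outside Olfr genes of at least 2000 bp, 3.53% were lower, against 34.8% (140 of 402) of those that also held at least 5 words. Those 402 peaks were still the wider ones, with a median of 5550 bp against 3150 bp. For the first group of words the share was 32.2% of 422 peaks and for the second 26.5% of 49 peaks. No test was made of these shares, and reads that map to several copies of a repeat were removed by the mapping quality filter, so what these peaks measure is the part of the copies that can be told apart.

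Receptor genes carried H3K9me3 peaks more often than other genes did. Of 1407 Olfr genes in the GENCODE annotation, 836 (59.4%) had at least 1 annotated peak. The share was 62.6% of 1135 protein-coding receptor genes and 46% of 272 receptor pseudogenes, against 31.1% of 21951 protein-coding genes of all kinds. A receptor with peaks had a median of 3, and 218 receptors had 1. Olfr643, Olfr859 and Olfr912 had the most, 11 each, and none of these 33 peaks passed the threshold: the median changes at the 3 genes were 0.16, -0.16 and 0.00 on the log2 scale.

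Over input, the Olfr peaks were slightly below the whole table in WT. ChIP over input was taken as a log2 ratio of reads, with 1 read added and each library scaled to its reads in all peaks. This scaling sets the ratio of a typical peak near 0, so the values place the Olfr peaks relative to the other peaks and do not say how much of the mark they carry. The median over the Olfr peaks was -0.134, -0.0838 and -0.0971 for WT1 to WT3, whereas KO1 to KO3 had 0.0337, -0.0407 and -0.0469. The means were -0.105 ± 0.0262 in WT and -0.018 ± 0.0448 in KO (SD, n = 3). The same medians over all peaks were -0.0614 ± 0.0098 in WT and -0.0226 ± 0.0236 in KO. Only 143 Olfr peaks (5.37%) were above input in all 6 ChIP libraries, against 7.88% of all peaks, and 38 (1.43%) were at least 2-fold above input in the WT mean, against 3.21%. All 3 KO medians lay above all 3 WT medians for the Olfr peaks, and the same held over all peaks. The input itself was lower at the Olfr peaks in KO, with a median log2 ratio of KO to WT input of -0.0558, against -0.0048 over all peaks. Against the mean of both inputs the values were -0.088 in WT and -0.058 in KO. With 1 input per genotype, the part of the input in this difference was not tested.

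**Figure D1:**
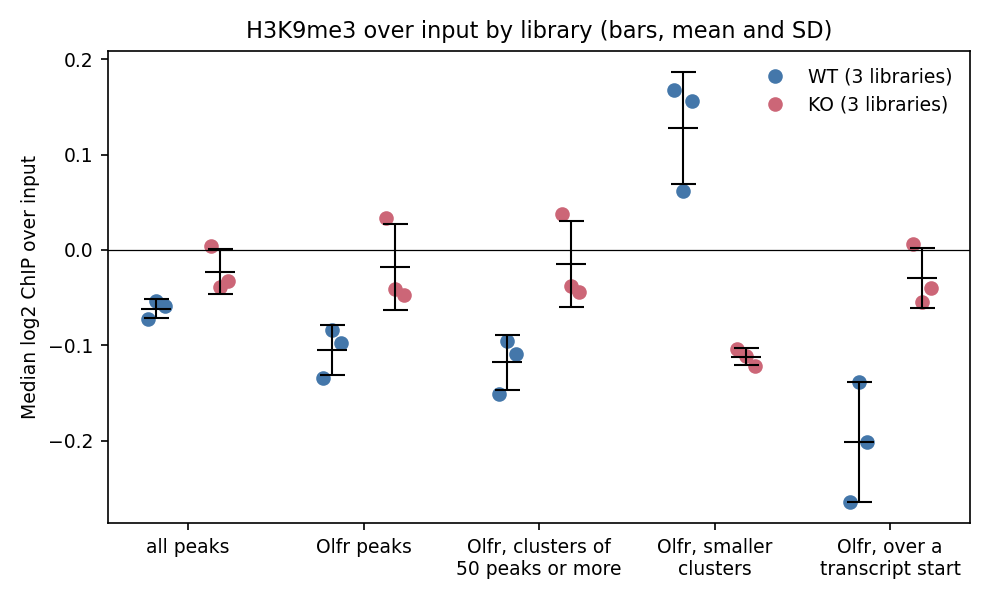
Median log2 ratio of H3K9me3 ChIP to input (vertical axis) for all peaks and for sets of Olfr peaks, 1 point per library, with WT in blue, KO in red and black bars for the mean and SD of 3 libraries. In clusters of under 50 peaks the WT libraries sit at 0.0615 to 0.168 and the KO libraries at -0.122 to -0.104, whereas in the larger clusters the WT points lie below the KO points.

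In sequence the Olfr peaks were slightly richer in AT and in repeats than other peaks and lay over coding sequence more often. The median GC content was 38.5% against 39.6% for all peaks, the median share of bases in masked repeats 40.9% against 35.2%, and both sets had a median width of 1350 bp. Coding sequence was covered by 14.7% of the Olfr peaks, against 2.5% of all peaks and 6.81% of peaks with an annotated gene. For a transcript start the shares were 17%, 2.75% and 6.93%. Receptor genes are short, with their coding sequence in a single exon, and the peaks over coding sequence were poor in repeats (14.4%), whereas those upstream of the genes had 60.3%. In 114 of 948 RefSeq receptor promoters (250 bases before to 50 after the start, GRCm38.p6) the whole promoter lay inside an Olfr peak. The homeodomain word TAATTA, which reads the same on both strands, occurred in 24 of these 114 (21.1%), in 18.6% of all 948 receptor promoters and in 5.29% of 32851 promoters of all genes. The core of the sites bound by EBF factors, CCCNNGGG, which is also its own reverse complement, occurred in 1.75%, 3.06% and 13.7% of the same promoters. Both factor families act at receptor genes in olfactory neurons, and the words do not overlap one another. TAATTA holds only A and T, and the fixed bases of CCCNNGGG are only C and G. The shares were not adjusted for base content, and binding was not tested.

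The share of peaks that changed between KO and WT was smaller at receptor genes than over all peaks. In limma's test with Benjamini-Hochberg adjustment over all 212313 peaks, at an adjusted p under 0.05, 29 Olfr peaks (1.09%) were lower and 4 (0.15%) higher in KO, whereas 2.46% of all peaks were lower and 0.252% higher. Among the 77485 peaks with any annotated gene, 3.92% were lower and 0.472% higher. The median change of the Olfr peaks was 0.023 on the log2 scale, against 0.028 over all peaks, and the middle of the distribution ran from -0.134 to 0.171 (quartiles) with extremes of -1.55 and 1.71. All 3 KO values lay below all 3 WT values at 166 Olfr peaks (6.23%) and above them at 169 (6.34%), against 8.21% and 7.3% of all peaks. The 33 peaks past the threshold included 28 lower and 4 higher peaks whose KO and WT values did not overlap. A threshold on the same values favours such peaks. The typical standard error of a change was 0.223, which limits what was detectable at a typical Olfr peak. In simulated data 70.5% of 2-fold changes were recovered, but these were placed only in peaks above a minimum mean read count. Recovery at shallower peaks was not tested.

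The number of lower peaks depended on single libraries and on the test. Without 1 WT library in turn the count was 19, 19 or 17, and without 1 KO library 23, 24 or 20. DESeq2 on recovered reads called 12 lower and 0 higher. Of the 29 lower peaks 9 passed the threshold in every one of these 6 reduced sets, and none of the 4 higher peaks did. KO1, the shallowest library with 7067037 reads in peaks against up to 11829438 in the others, had the lowest value at 18 of the 29 lower peaks.

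Olfr peaks fell into 45 clusters, each a run of Olfr peaks with less than 1 Mb between neighbours, and lower peaks were more frequent in clusters with few peaks. The 12 clusters of at least 50 Olfr peaks held 2468 peaks, of which 7 (0.284%) were lower and 4 higher. The other 33 clusters held 197 peaks, of which 22 (11.2%) were lower and 0 higher. Median changes of the large clusters ran from -0.06 to 0.07 on the log2 scale. Of the small clusters 25 had a median below 0, and the median over all their peaks fell by 0.133 on the log2 scale. The limit of 50 peaks was chosen after these values were seen. With a limit of 20 peaks the shares were 0.357% and 13.9%, and with a limit of 100 they were 0.141% and 4.85%. Without any 1 library, 14 to 20 peaks of the small clusters and 1 to 5 of the large ones were lower, and with DESeq2 11 and 1.

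**Figure D2:**
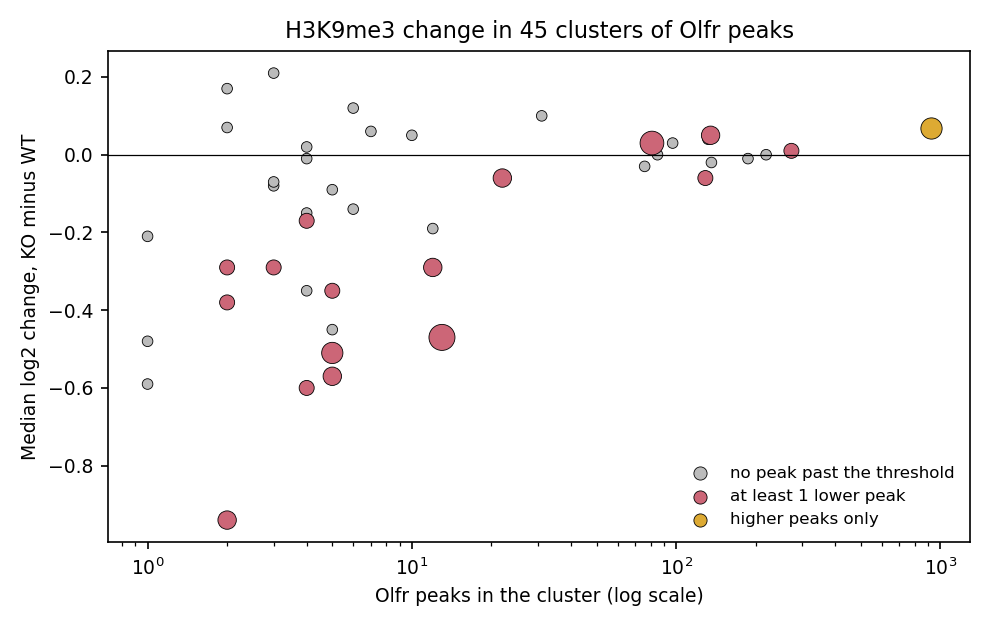
Median log2 change of H3K9me3 (KO minus WT, vertical axis) against the number of Olfr peaks (log scale, horizontal axis) for 45 clusters, with larger points for more peaks past the threshold in either direction. Clusters of at least 50 peaks lie between -0.06 and 0.07, and the clusters with lower peaks and fewer members reach -0.94.

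Small and large clusters also differed in their surroundings and sequence. Another protein-coding gene, chemosensory receptors aside, was missing within 100 kb of 29.9% of the peaks in small clusters and of 81.7% of those in large ones. Peaks of small clusters had a median GC content of 41.5% and 50.7% repeats, against 38.2% and 39.9% in large clusters. As the limit of 50 peaks was chosen on the changes, the ChIP over input of both sets only restates them. The medians in small clusters were 0.168, 0.0615 and 0.156 in WT and -0.104, -0.111 and -0.122 in KO, with no overlap. In large clusters the WT medians were -0.151, -0.0952 and -0.109 and the KO medians 0.0377, -0.0375 and -0.0439. Over all Olfr peaks, 19 of 590 (3.22%) with such a gene within 100 kb were lower, against 10 of 2075 (0.482%) without one. Over all peaks of the table the same shares were 5.18% and 0.46%.

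Over all Olfr peaks, the median change was below 0 in the 2 groups with the highest level in WT and not in the other 3. To keep the level apart from the change, peaks were grouped by log2 ChIP over input in WT1 alone and the change was taken from WT2, WT3 and the KO libraries. In Olfr peaks under -0.5 (467 peaks), from -0.5 to 0 (1207 peaks) and from 0 to 0.5 (778 peaks) the median change was 0.01 on the log2 scale in each, from 0.5 to 1 it was -0.07 (161 peaks) and at 1 or more it was -0.14 (52 peaks). Over all peaks the medians in the 5 groups were 0.03, 0.04, 0.01, -0.09 and -0.12. Within the small clusters the median was 0.09 for the 18 peaks under -0.5, -0.03 for the 51 peaks from -0.5 to 0, -0.16 for the 80 peaks from 0 to 0.5, -0.31 for the 29 peaks from 0.5 to 1 and -0.21 for the 19 peaks at 1 or more. In the large clusters it was 0.01 (449 peaks), 0.02 (1156 peaks), 0.02 (698 peaks), -0.06 (132 peaks) and -0.1 (33 peaks) in the same order.

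The largest array, on chromosome 2 from 85.6 to 90.3 Mb, held 918 Olfr peaks, and 86.5% of the 274 receptor genes annotated there had a peak. Peaks covered 55.8% of its length, against 15.6% of the genome. Its Olfr peaks took 3930, 4200 and 4160 RPM (reads scaled to the reads in all peaks of a library) in WT, 4390, 4310 and 4250 in KO, and 4590 and 4300 in the WT and KO input. The KO libraries were thus above the WT libraries without overlap, by little, and on this scale the WT libraries were below their input. No peak of this array was lower, 3 were higher, and its median change of 0.07 was the highest among the large clusters.

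On chromosome 9 from 37.7 to 40.1 Mb, 1 of 273 peaks was lower and the median change was 0.01. On chromosome 19 from 11.9 to 13.9 Mb, 0 of 219 peaks passed the threshold, nor did any of 187 peaks on chromosome 9 from 18.7 to 20.3 Mb, and the medians were 0.00 and -0.01. The class I array on chromosome 7 from 102.7 to 105.3 Mb was more thinly covered, with peaks over 13% of its length and at 43.5% of its 138 receptor genes. None of its 136 peaks passed the threshold in the full set, and its peaks took 454 to 477 RPM in WT and 436 to 454 in KO, with 448 and 464 in the inputs. On chromosome 17 from 37.2 to 38.3 Mb, beside the major histocompatibility complex, 135 peaks held 1 lower peak, at Olfr97, and 1 higher peak, at Olfr124.

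Of the small clusters, that on chromosome 11 from 73.4 to 74.4 Mb had the most lower peaks, 5 of 13, at Olfr379-ps1 (2 peaks), Olfr400-ps1, Olfr59 and Olfr412. Its peaks took 108, 95.1 and 95.3 RPM in WT and 78.3, 73.4 and 75.3 in KO, with 74.4 and 74.5 in the inputs. On this scale the WT libraries were above both the KO libraries and the inputs, and the groups did not overlap. The cluster was named for its lower peaks, whose reads enter these sums, so this gap only restates the calls. Its median change fell by 0.47 on the log2 scale. Without 1 library in turn, 2 to 5 peaks of the cluster were lower, and with DESeq2 2.

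The cluster on chromosome 8 from 72.0 to 72.1 Mb, with the genes Olfr372 and Olfr373, had 3 lower peaks of 5, of which 1 or 2 passed without any 1 library and 1 with DESeq2. Its peaks took 39.8, 35.4 and 40.8 RPM in WT and 21.6, 28.8 and 26.9 in KO, again without overlap. Here too the sums include the lower peaks for which the cluster was named. Its inputs were 23.1 in WT and 28.9 in KO. On chromosome 7 at 99.8 Mb both peaks of the lone gene Olfr521 were lower, and they stayed so without any 1 library. Their RPM values were 36, 28.9 and 29.8 in WT, 17.3, 19.2 and 20.7 in KO and 14.7 and 16.6 in the inputs. Chromosome 11 had 2 lower peaks of 5 from 58.5 to 58.7 Mb, at Olfr332 and Olfr316, and 1 of 4 at Olfr56 (49.1 to 49.4 Mb). On chromosome 7 from 140.2 to 140.7 Mb, 2 of 12 peaks were lower, at Olfr535 and Olfr61, and on chromosome 14 from 49.9 to 50.7 Mb 2 of 22, at Olfr746 and Olfr748. On chromosome 14 the count was 0 without WT3, 1 without WT2, KO2 or KO3, and 1 with DESeq2. From 140.2 to 140.7 Mb on chromosome 7 it was 1 without WT2, WT3 or KO1 and with DESeq2, and from 58.5 to 58.7 Mb on chromosome 11 it was 1 to 3 without any 1 library and 0 with DESeq2. The larger cluster on chromosome 7 from 106.7 to 108.8 Mb had 4 lower peaks of 81, at Olfr710, Olfr501-ps1, Olfr506 and Olfr510, but its median change was 0.03 and at most 2 of the 4 stayed past the threshold without 1 library. With DESeq2 none of these 4 did.

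Among the peaks past the threshold, the strongest fall was at Olfr535 and the smallest p at Olfr373. At Olfr535 (chr7:140492851-140494800) the peak ran over coding sequence, and its deposited values, log2 reads per peak after the authors matched the libraries, were 5.66, 5.98 and 6.05 in WT and 4.28, 4.37 and 5.01 in KO, with no overlap between the groups. The change of -1.34 ± 0.21 (SE, n = 3 per group) had an adjusted p of 1.47e-05 in limma's test. The recovered reads were 56, 61 and 75 in WT and 14, 24 and 32 in KO, with 32 and 20 in the WT and KO input, so here the input moved the same way as the mark, by -0.59 on the log2 scale.

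At Olfr373 the lower peak (chr8:72101851-72103650) lay over an exon beyond the coding sequence. The values were 6.23, 5.96 and 6.39 in WT and 4.48, 5.24 and 4.92 in KO, well apart. The change was -1.31 ± 0.19 (SE, n = 3 per group), with an adjusted p of 3.7e-06 in limma's test, and it passed the threshold without any 1 library and with DESeq2 (adjusted p = 0.00025). The reads were 83, 60 and 95 in WT and 16, 44 and 30 in KO, against 35 and 31 in the inputs. A further peak at the same gene (chr8:72094651-72097500), which holds the copy shown above, fell by 0.51 ± 0.14 (SE, n = 3 per group; limma adjusted p = 0.0371) but passed in 1 of the 6 reduced sets.

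The lone gene Olfr521 had its lower peaks on both sides. Upstream (chr7:99770401-99771600) the values were 5.98, 5.26 and 5.46 in WT and 4.18, 4.54 and 4.28 in KO, a change of -1.23 ± 0.23 (SE, n = 3 per group; limma adjusted p = 0.000241). Downstream (chr7:99757051-99761550) they were 8.2, 7.99 and 8 in WT and 7.31, 7.41 and 7.56 in KO, a change of -0.64 ± 0.1 (SE, n = 3 per group; limma adjusted p = 1.36e-05). Neither pair of groups overlapped. The downstream peak was one of the 5 Olfr peaks highest over WT input among those with at least 10 WT input reads, at 1.24 on the log2 scale in WT and 0.39 in KO.

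On chromosome 11, the peak overlapping Olfr56 (chr11:49115401-49117650), 82.4% of it masked repeat, had values of 6.6, 6.2 and 6.49 in WT and 5.51, 5.48 and 5.39 in KO. It fell by 0.97 ± 0.16 (SE, n = 3 per group; limma adjusted p = 3.25e-05). Upstream of Olfr59 (chr11:74292751-74294850) the values were 6.67, 6.35 and 6.23 in WT and 5.64, 5.58 and 5.49 in KO, and overlapping Olfr412 (chr11:74365801-74367450) they were 6.23, 5.88 and 6.16 in WT and 5.15, 5.3 and 5.18 in KO. These falls were 0.85 ± 0.16 and 0.88 ± 0.17 (SE, n = 3 per group), with limma adjusted p of 0.000291 and 0.000641. At all 3 genes the lowest WT value was above the highest KO value. The WT and KO inputs held 44 and 29 reads at Olfr412, where the input thus fell as well. They held 43 and 54 at Olfr59 and 42 and 49 at Olfr56.

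The remaining named falls were at Olfr97, Olfr1415 and Olfr212. Downstream of Olfr97 (chr17:37239151-37240950) the values were 6.1, 6.14 and 6.09 in WT and 5.2, 5.2 and 4.96 in KO, with a change of -0.98 ± 0.17 (SE, n = 3 per group; limma adjusted p = 0.000119). Upstream of Olfr1415 (chr1:92487001-92488650) they were 6.34, 5.8 and 6.21 in WT and 4.89, 5.33 and 5.43 in KO, with a change of -0.9 ± 0.18 (limma adjusted p = 0.000873). The Olfr212 peak (chr6:116501101-116506800) ran over the transcript start and was 5700 bp wide. Its values were 8.3, 8.08 and 8.01 in WT and 7.54, 7.89 and 7.56 in KO, with a change of -0.47 ± 0.1 (limma adjusted p = 0.00203), and it passed in 5 of the 6 reduced sets. The groups were apart at each of these peaks.

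**Figure D3:**
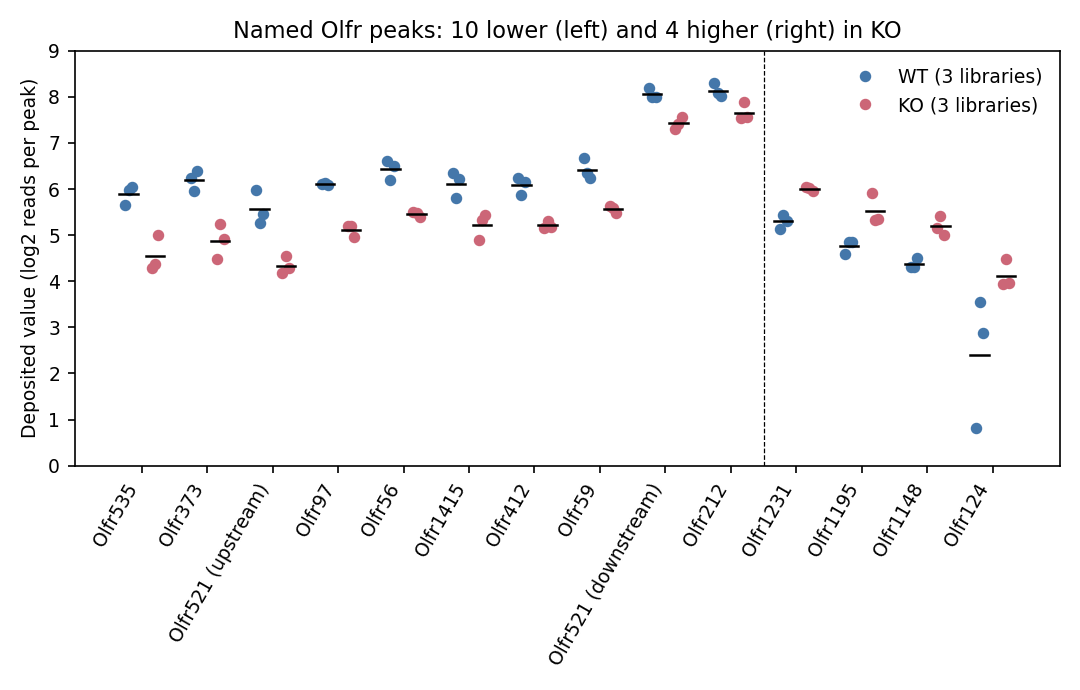
Deposited H3K9me3 values (log2 reads per peak) of the 10 lower peaks of smallest p and the 4 higher peaks, 1 point per library, WT in blue and KO in red, with a black line at each group's mean. Blue and red points do not overlap at any of these peaks, which were picked by p on the same values. The Olfr124 points in WT spread from 0.81 to 3.54.

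The 4 higher peaks lay in the large arrays. At Olfr1231 (chr2:89309851-89311950) the values were 5.14, 5.44 and 5.31 in WT and 6.04, 6.02 and 5.95 in KO, a change of 0.7 ± 0.17 (SE, n = 3 per group; limma adjusted p = 0.00921). It passed in 5 of the 6 reduced sets, but the input moved with it, with 40 reads in WT and 49 in KO. At Olfr1195 (chr2:88682851-88684350) the peak covered the coding sequence and the transcript start. Its values were 4.6, 4.86 and 4.86 in WT and 5.91, 5.33 and 5.36 in KO, a change of 0.76 ± 0.21 (limma adjusted p = 0.0298) that passed in 2 of the 6 reduced sets. Upstream of Olfr1148 (chr2:87837001-87838350) the change was 0.82 ± 0.23 (limma adjusted p = 0.0376), and it passed in 0 of the reduced sets. The Olfr124 peak (chr17:37810651-37811100) rested on 3, 11 and 9 reads in WT and 11, 26 and 15 in KO, and the change of 1.71 ± 0.47 (limma adjusted p = 0.0314) passed in 2 of the reduced sets. In all 4 peaks the scaled WT mean was below input. DESeq2 called none of them, and its adjusted p was not given for Olfr124.

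The KO and WT values did not overlap at any of the 6 peaks nearest the threshold, but a choice by p on the same values favours this. Over all Olfr peaks KO lay wholly below WT at 6.23% and wholly above at 6.34%. Just inside it were the peaks at Olfr372 (-0.46, limma adjusted p = 0.0422), Olfr1148 and Olfr501-ps1 (-0.52, limma adjusted p rounding to 0.05). Just outside it were those at Olfr318 (-0.72, limma adjusted p = 0.0532), Olfr1219 (0.52, limma adjusted p = 0.0578) and Olfr367-ps (-0.37, limma adjusted p = 0.0616). At Olfr1219 the values were 5.66, 5.69 and 5.63 in WT and 6.16, 6.2 and 6.18 in KO, without overlap.

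The peaks highest over WT input were at Olfr372 (1.29 on the log2 scale), Olfr61 (1.27), Olfr521 (1.24), Olfr169 (1.23) and Olfr1361 (1.2), among those with at least 10 WT input reads. The first 3 of these were lower in KO, against 1.09% of all Olfr peaks. The WT values that picked these 5 peaks also enter the change, which by itself favours a fall. The WT input held 13 reads at Olfr61 and 10 at Olfr1361. The Olfr169 peak, 9900 bp wide with 89.1% repeats, was the most deeply covered of the 5 and did not pass the threshold: its values were 8.94, 8.6 and 8.86 in WT and 8.74, 8.98 and 8.7 in KO, and its KO value over input was 1.27. Levels over input in KO were 0.17 at Olfr61 and -0.1 at Olfr372, where the KO input was higher than the WT input by 0.94 on the log2 scale.

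The 3 widest Olfr peaks did not pass the threshold either. They were 20850 bp downstream of Olfr1287, 18600 bp downstream of Olfr58 and 14250 bp upstream of Olfr782, with changes of 0.01 ± 0.07, 0.02 ± 0.07 and -0.17 ± 0.07 (SE, n = 3 per group). These peaks had 314 to 662 reads in each ChIP library, and their changes had the smallest standard errors of the named peaks.

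Of 12 well-studied receptors 4 had a peak, against 59.4% of all Olfr genes. The 8 without one were Olfr78, an acetate and propionate receptor also found in the carotid body, Olfr558, Olfr544, Olfr16, Olfr17, Olfr151, Olfr160 and Olfr1507. The other 4, Olfr73 (the eugenol receptor), Olfr2 (the octanal receptor), Olfr713 and Olfr15, had 7 peaks, none of which passed the threshold, against 1.09% of all Olfr peaks lower and 0.15% higher. The peak over the coding sequence of Olfr2 had values of 5.55, 5.72 and 5.17 in WT and 5.64, 5.5 and 5.59 in KO, which overlapped. The Olfr15 peak, with values of 5.27, 5.48 and 5.49 in WT and 4.81, 4.69 and 5.05 in KO, did not overlap but missed the threshold (limma adjusted p = 0.183).

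Of 15 genes for odorant signal transduction and receptor trafficking, 4 had H3K9me3 peaks, against 31.1% of all protein-coding genes. They had 9 peaks in all, of which 2 were lower and 0 higher, against 3.92% and 0.472% of all peaks with an annotated gene. These lower peaks were at Gnal, the G protein subunit of the olfactory cascade (5.37, 5.75 and 5.55 in WT and 4.28, 4.99 and 5.14 in KO, limma adjusted p = 0.0392), and at Ano2, the calcium-activated chloride channel (5.24, 5.37 and 5.17 in WT and 4.48, 3.87 and 4.55 in KO, limma adjusted p = 0.0107). Of 18 genes for receptor choice and heterochromatin, 3 had peaks, and 3 of these 6 peaks, all at Smchd1, were lower. Smchd1 codes for a chromatin protein that helps silence gene clusters and the inactive X chromosome. The Smchd1 peak of smallest p had values of 7.63, 7.46 and 7.64 in WT and 6.38, 6.5 and 6.89 in KO, a fall of 0.99 on the log2 scale (limma adjusted p = 9.37e-08).

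Other chemosensory receptor families ranged from no lower peak to 2 of 3, against 3.92% of all peaks with an annotated gene. At Vmn2r genes, pheromone receptors in large arrays, 3 of 925 peaks (0.324%) were lower, and at Vmn1r genes 7 of 325 (2.15%). Tas2r bitter taste receptors had 36 peaks and Tas1r 1, none past the threshold, Fpr genes had 1 lower of 16, and Taar trace amine receptors had 2 lower of 3. None of these families had a higher peak, against 0.472% of all peaks with an annotated gene. At Zfp zinc finger genes, which also lie in arrays, 61 of 1042 peaks (5.85%) were lower and 3 higher.

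**Figure D4:**
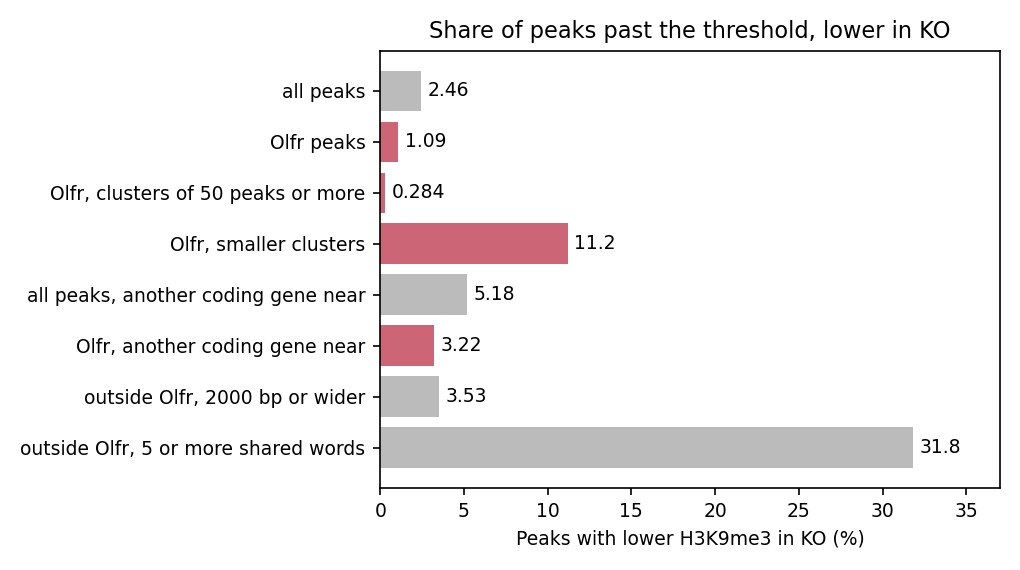
Share of H3K9me3 peaks lower in KO (percent, horizontal axis, from 0), with Olfr peaks in red and other sets in grey. Olfr peaks stand at 1.09%, those in smaller clusters at 11.2%, and peaks outside Olfr genes with at least 5 of the shared words at 31.8%.

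Marker genes cannot show which cells were present, since these files hold marks and not expression. Of 12 crypt epithelium markers 2 had H3K9me3 peaks (Lgr5 and Lyz1, 2 of 4 peaks lower), of 5 markers of other cells 2 had peaks (Pecam1 and Vim, 1 of 2 lower), and of 3 olfactory neuron markers 1 (Gnal), whereas Omp and Cnga2 had none. Over all protein-coding genes 31.1% had a peak, and 3.92% of all peaks with an annotated gene were lower.

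H3K9me2 at receptor genes did not change detectably. The 709 regions named 1077 receptors, up to 12 in a region, and covered 16.8 Mb with a median width of 14850 bp against 7050 bp over all regions. In edgeR's quasi-likelihood test over all 47065 regions, 0 Olfr regions were lower and 0 higher, against 1 lower (0.00212%) and 0 higher (0%) over all regions, and DESeq2 called 0 Olfr regions as well. At an unadjusted p under 0.05, 10 Olfr regions (1.41%) were lower and 12 (1.69%) higher, against 1.52% and 1.6% of all regions. The median change was 0.008 on the log2 scale, against -0.002 over all regions, with quartiles of -0.05 and 0.06. In simulated data of the same depth 93% of 2-fold changes, placed in regions above a minimum mean read count, were recovered. The median ChIP over input was -0.02, 0.02 and 0.02 in WT and -0.01, 0.03 and 0.04 in KO, on the scale that sets a typical region near 0.

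The lower H3K9me2 region of smallest p, over Olfr402 (chr11:74136001-74178000), lay in the chromosome 11 cluster with the most lower H3K9me3 peaks. It took 61, 56.3 and 58.9 RPM in WT and 51.1, 52.6 and 51.4 in KO, without overlap, a change of -0.19 ± 0.05 (SE, n = 3 per group; edgeR adjusted p = 1). The next was at Olfr163-ps1 (chr16:3617851-3623700), with 10.7, 10.4 and 9.64 in WT and 8.51, 8.74 and 8.29 in KO (edgeR adjusted p = 1). The higher regions of smallest p were at Olfr1367 (2.9, 2.91 and 3.3 in WT and 4.69, 3.53 and 4.66 in KO) and Olfr706 (3.55, 4.5 and 4.7 in WT and 5.33, 5.06 and 5.96 in KO), both with an edgeR adjusted p of 1. In the largest array, on chromosome 2, the median change over 162 regions was 0.03.

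Most Olfr H3K9me3 peaks lay in H3K9me2 regions. An overlap of at least 1 bp was found for 2005 of 2665 (75.2%), against 68.2% of all H3K9me3 peaks. The lower Olfr peaks overlapped less often, 11 of 29 (37.9%), and the peaks of small clusters stood between, at 62.9%. The share among all lower peaks of the table was not taken. Over all peaks it was 62.2% with another protein-coding gene within 100 kb and 72.6% without one. No test was made of these shares.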

How the data were processed

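Reads were trimmed with Trim Galore 0.4.4, aligned to GRCm38 with Bowtie2 2.3.2 and filtered for mapping quality by the authors, who removed duplicates and called MACS peaks on all libraries of a mark together against the inputs. The deposited H3K9me3 table holds log2 reads per peak, with the 6 ChIP libraries matched in distribution by the authors and the inputs left as counted. The deposited H3K9me2 table holds a signal, reads averaged over the MACS peaks of each region, which times the number of peaks gives whole reads. A deposited table of read counts for 3 H3K9me2 peaks served as a check, and all 3 lay within their region sums. A further H3K9me3 file and columns of the authors' own tests (false discovery rates) were not used, nor were 8 columns of standard deviations over peaks.

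H3K9me3 was tested with limma 3.58.1 (trend, genotype only, R 4.3.3) on the deposited log2 values, and H3K9me2 with edgeR 4.0.16 (quasi-likelihood, TMM) on region sums; DESeq2 1.42.0, a replicate block, filters and leaving out each library were alternatives. p-values are two-sided and adjusted by Benjamini-Hochberg over all features. Whole H3K9me3 reads were recovered from the order of the distinct values (exact where at least 8 peaks share a count, otherwise extrapolated, which touched 25 Olfr peaks), and returned at least 99.7% of peaks within 0.002. ChIP libraries held 7067037 to 11829438 reads in H3K9me3 peaks and 18986927 to 39080740 in H3K9me2 regions. On simulated data 70.5% of 200 2-fold changes were recovered among 212313 H3K9me3 peaks, with 2 false calls, and 93% among 47065 H3K9me2 regions, with 9. The changes were placed only in peaks or regions above a minimum mean read count. No pair of libraries of a group was alike within sampling noise. In H3K9me2, libraries of 1 genotype were not always the closer ones. There the chi-square per degree of freedom between read counts was 3.71 for WT1 and WT2, 2.57 for WT1 and KO1 and 1.36 for WT2 and WT3. Genes and exons came from GENCODE M21, whose 21 chromosomes matched the files, and sequences from RefSeq.

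The members and lists were chosen with earlier results of these data known. Named peaks were the 10 lower and up to 10 higher of smallest p, the 5 highest over WT input, the 3 widest, those of 12 well-studied receptors, calls in clusters with at least 2, and 3 on either side of the threshold; also the 3 genes with most peaks, the 5 largest clusters and, for H3K9me2, the 2 lower and 2 higher of smallest p. The split by cluster size, the groups by WT1 level, the neighbouring genes and the shared words were added after values were seen.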

Additional observations from a re-analysis of the deposited data

How the results depend on the processing

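Against 29 lower and 4 higher Olfr peaks, DESeq2 gave 12 and 0, an adjusted p under 0.01 gave 17 and 1, and peaks overlapping the gene gave 10 and 1. Peaks with a mean ChIP over input above 0 held 21 lower and 2 higher, and clusters of at least 50 Olfr peaks (added after the data were seen) 7 and 4, which leaves 22 and 0 for the others. Leaving out 1 library gave 17 to 24 lower and 0 to 3 higher: without WT1 19 and 0, without WT2 19 and 3, without WT3 17 and 3, without KO1 23 and 1, without KO2 24 and 2, without KO3 20 and 2. Over all peaks DESeq2 gave 2278 lower and 127 higher. edgeR on recovered reads (31 and 4) and a mean log2 value of at least 4 (30 and 4) stayed close. The replicate block also gave 29 and 4, with median change 0.023, and 0 and 0 in H3K9me2, with median change 0.009; same-numbered libraries did not deviate together in H3K9me3 (correlations -0.015, 0.009 and -0.014), and in H3K9me2 they were 0.18, 0.016 and 0.078. Over all H3K9me2 regions the block gave 15 lower and 2 higher against 1 and 0. The median H3K9me3 change stayed between 0.003 and 0.041, the H3K9me2 change between -0.007 and 0.016, with 0 calls in every setting run, and ChIP over input stayed below 0 in both genotypes. With a stricter overlap, over most of the peak, the H3K9me2 regions held 1922 Olfr peaks against 2005. The cause of the differences was not tested. Depth limits small changes: the median Olfr peak held 23 to 37 reads per ChIP library.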
